A study of Mus musculus with 6 samples.

Results

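S100 proteins are small calcium sensors. The genes described here are 9 S100 genes of mouse chromosome 3 other than the inflammatory alarmins *S100a7a*, *S100a8* and *S100a9*: *S100a1*, *S100a3*, *S100a4*, *S100a6*, *S100a10*, *S100a11*, *S100a13*, *S100a14* and *S100a16*. They were taken by name from the table of read counts, where they are 9 of 55367 gene names, and all 9 had enough reads to be tested. Total RNA was sequenced from primary keratinocytes, the main cells of the epidermis, taken from the skin of pups at day 2 and grown in low-calcium medium without immortalization. Every culture had the genotype *Ppp1r13l* flox/flox;Cre+ERT on a mixed C57BL/6 and 129/Sv background, with loxP sites around exon 8 of *Ppp1r13l*, the gene of iASPP, an inhibitor of p53 family proteins. The Cre-ERT allele sits in the ROSA26 locus, so it is not restricted to keratinocytes. Cells of each of 3 batches were divided: the iASPP KO culture received tamoxifen when the medium was changed at 24 h, and the iASPP WT culture received fresh medium alone, after which both were kept for 4 days. The WT cultures had no tamoxifen, so the drug and the deletion cannot be told apart, and the tamoxifen concentration is 1 mM in the labels and 1 μM in the study's methods. The labels do not say whether the batches came from separate animals, so p-values measure the spread between these cultures. *Ppp1r13l* itself (chr7:19359749-19378533), counted over the whole gene and not only over exon 8, stood at 14.3, 17.7 and 5.91 CPM (reads scaled to a library total of 1000000) in KO batches 1, 2 and 3 and at 32.7, 45.1 and 21.0 CPM in WT. It was lower in KO in 3 of 3 batches, with a log2 fold change of -1.45 ± 0.18 (SE, adjusted p = 0.00296), which goes with the labels.

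An S100 protein carries a pair of calcium-binding EF-hand loops and works mostly as a dimer. Calcium exposes a greasy face on each partner of the dimer, which then grips another protein, often the tail of an annexin, a membrane-binding protein that also needs calcium. The genes lie together in and beside the epidermal differentiation complex, the stretch of chromosome 3 that holds the genes for the cornified layer of the skin. S100A8, S100A9 and the S100A7 proteins are released as danger signals in inflamed skin. The 9 genes here encode proteins known from, among other places, the cytoskeleton, the cell membrane, protein export, the hair and muscle.

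Across these 9 genes the differences between iASPP KO and WT were small or not resolved. In an edgeR quasi-likelihood test with batch in the model and Benjamini-Hochberg adjustment over 14916 tested genes, 0 of the 9 were called at an adjusted p of 0.05, beside 4.12% of all tested genes (2.17% called higher and 1.95% lower in iASPP KO). DESeq2 also called 0 of the 9, beside 6.77% of the genes it tested. At an unadjusted p of 0.05, 1 of the 9 passed (*S100a4*), beside 16.7% of all tested genes. The CPM ranges of KO and WT overlapped for 9 of the 9, and they did not overlap for 10.7% of all tested genes. The median log2 fold change of the 9 was 0.0073, and that of all tested genes was 0.0057. The alarmin genes beside them were called higher in KO, with log2 fold changes of 1.95 (*S100a7a*), 1.98 (*S100a8*) and 1.93 (*S100a9*).

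In the count table (mm10), 7 of the genes lie within chr3:90511034-90624181 and the other two within chr3:93520488-93564643. *S100a1* alone is on the minus strand, and its start is 43 bases from that of *S100a13* on the plus strand, so that these genes are transcribed away from each other. Promoter sequence was looked at because the study compares iASPP KO and WT for the AP1 motif, a binding sequence of Jun and Fos proteins. RefSeq promoters (GRCm38.p6, 250 bases before to 50 after a start) matched 7 of the 9 genes, with 11 promoters among them. *S100a10* and *S100a14* were not matched. TGANTCA, an AP1-type motif that reads alike on both strands, was in 2 of the 11 promoters and in 7.81% of all 32851 promoters. TATAAA, the core of a TATA box, was searched on both strands and was in 2 of the 11, those of *S100a4* and of the third start of *S100a3*, and in 13.6% of all promoters. These motifs do not overlap in the promoters shown. The promoters of *S100a7a*, *S100a8* and *S100a9* held no TGANTCA in this window. Those of *S100a8* and *S100a9* held TATAAA, from position -30 and from the start itself. The study scored AP1 motifs elsewhere, in regions bound by p63, a p53 family protein, which lay mostly outside promoters. It reports AP1 motifs in such a region that it assigns to an enhancer of these alarmin genes, which this window does not cover. A match describes the letters and not a bound site. The *S100a4* stretch is shown as that of the gene with the highest fitted log2 fold change, and the other two as the ones with TGANTCA. All are on the plus strand, 5′ to 3′, upstream of the first exon base, with the motifs in capitals: *S100a4*, chr3:90603520-90603769, with TATAAA from position -31, counted from the RefSeq start. *S100a11*, chr3:93520246-93520487, with TGAGTCA from -136 and from -38. *S100a16*, second start, chr3:90540896-90541145, within an intron of the longer transcripts, with TGAATCA from -192.
S100a4: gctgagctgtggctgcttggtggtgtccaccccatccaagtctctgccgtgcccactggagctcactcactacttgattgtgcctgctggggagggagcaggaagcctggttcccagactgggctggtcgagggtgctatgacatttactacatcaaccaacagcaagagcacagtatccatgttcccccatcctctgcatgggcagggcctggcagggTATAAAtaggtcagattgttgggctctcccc
S100a11: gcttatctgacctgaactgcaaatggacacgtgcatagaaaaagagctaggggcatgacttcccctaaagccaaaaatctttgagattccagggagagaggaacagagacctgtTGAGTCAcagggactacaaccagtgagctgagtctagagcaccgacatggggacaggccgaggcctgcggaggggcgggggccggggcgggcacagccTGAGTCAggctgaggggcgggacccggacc
S100a16: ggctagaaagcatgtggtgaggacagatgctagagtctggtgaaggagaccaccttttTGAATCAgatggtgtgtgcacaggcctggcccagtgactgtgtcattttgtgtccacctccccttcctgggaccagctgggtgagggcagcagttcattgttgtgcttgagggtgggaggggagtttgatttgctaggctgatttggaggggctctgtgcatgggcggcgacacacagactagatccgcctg

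The levels of the 9 genes spanned several orders of magnitude. Per kilobase of exon, *S100a6* stood at 1433 ± 181 CPM (SD, n = 6 libraries) and *S100a3* at 1.18 ± 0.629. *S100a6* ranked 38 of the 14916 tested genes on this scale, *S100a10* 39, *S100a14* 75 and *S100a16* 203. The level per kilobase of *S100a10* was 1408 ± 241, and *S100a6* was above it in only 3 of 6 libraries, so their order was not resolved. *S100a14* followed at 678 ± 53.7 and *S100a16* at 214 ± 51.8, each below the gene before it in 6 of 6 libraries. Then came a group whose order changed from library to library: *S100a11* at 32.2 ± 9.93, *S100a4* at 31.5 ± 26.9 and *S100a13* at 20.8 ± 2.10. *S100a11* was above *S100a4* in 4 of 6 libraries and *S100a4* above *S100a13* in 3 of 6. *S100a1* at 4.43 ± 1.73 and *S100a3* came last in 6 of 6. The level per kilobase of 8 of the 9 was above the median of all tested genes, which was 4.03. *S100a6*, *S100a10* and *S100a14* together gave 89.3% to 93.7% of the reads of the 9 genes in a library, and all 9 gave 96193 to 142418 reads.

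Some of these levels depend on how reads are assigned to genes. featureCounts by default leaves out reads that lie on exons of several genes or align to several places. Of the 584 exon bases of *S100a4*, 302 (51.7%) are shared on the same strand with *Gm42674*, an annotated readthrough gene that itself had 0 reads in every library. Of the 2670 exon bases of *S100a3*, 297 (11.1%) are shared with *Gm42674* and *S100a2*. Of the 42-base stretches of *S100a11* transcripts in GENCODE vM21, 43.6% also occur in the transcripts of 4 processed pseudogenes. The levels of *S100a4*, *S100a11* and *S100a3* are therefore uncertain against those of other genes, while KO and WT were counted by the same rule. The other 6 genes share no exon base and no such stretch.

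**Figure D1:**
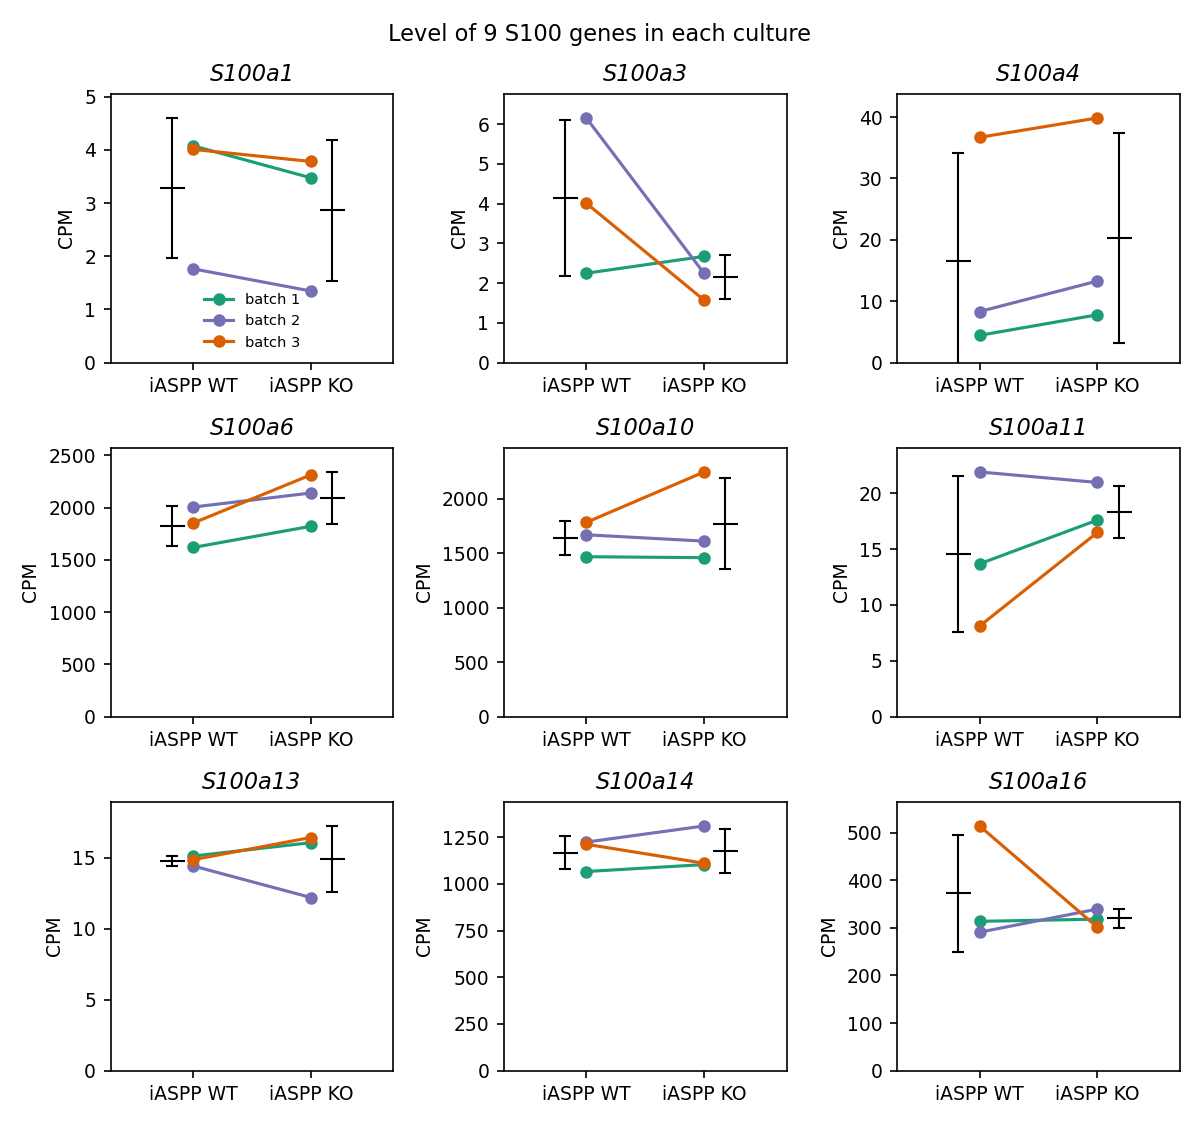
Level of each of the 9 genes in CPM (vertical axes, each from 0) in the iASPP WT and iASPP KO culture of each batch, joined by a line within a batch, with the mean ± SD of each condition at the side (n = 3, a bar that would pass below 0 ends at the axis). *S100a6* lies between 1619 and 2314 CPM and *S100a3* between 1.57 and 6.15, and in every panel the KO and WT points overlap.

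*S100a6* and *S100a10* headed the order of levels. *S100a6* encodes calcyclin, which binds CACYBP, an adaptor of ubiquitin ligases, and is abundant in dividing epithelial cells. Its level was 1822, 2141 and 2314 CPM in KO batches 1, 2 and 3 and 1619, 2006 and 1853 CPM in WT. KO was higher in 3 of 3 batches, by 0.17, 0.094 and 0.32 on the log2 scale, although the ranges overlapped. The fitted log2 fold change was 0.19 ± 0.11 (SE, 95% interval -0.041 to 0.43, adjusted p = 0.408). This interval leaves room for a fold of 0.972 to 1.35.

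*S100a10* encodes p11, an S100 protein that has lost calcium binding, stays in the open form and joins a pair of annexin A2 molecules into a membrane complex that also holds AHNAK and receives plasminogen. Its level was 1459.8, 1612 and 2247 CPM in KO and 1468, 1669.8 and 1784 CPM in WT. KO minus WT was -0.0084 and -0.051 on the log2 scale in batches 1 and 2, and KO was higher by 0.33 in batch 3. The fitted log2 fold change was 0.091 ± 0.12 (95% interval -0.17 to 0.35, adjusted p = 0.774), and it was -0.030 without batch 3. *Anxa2* stood at 1524, 1418 and 1882 CPM in KO and 1776, 1662 and 2752 CPM in WT, with a log2 fold change of -0.33 ± 0.11 (95% interval -0.58 to -0.081) that missed the threshold (adjusted p = 0.158). The ratio of the *S100a10* to the *Anxa2* level per kilobase, taken within a library and so free of library scaling, was 2.95, 3.50 and 3.67 in KO and 2.55, 3.09 and 1.99 in WT. It was higher in KO in 3 of 3 batches, by a mean of 0.42 ± 0.40 (SD) on the log2 scale, most of it from batch 3 (0.88, against 0.21 and 0.18). An exact two-sided permutation test over the 3 pairs gave p = 0.25, the smallest p that 3 pairs allow (0.313 adjusted over the 5 pairs of member and partner compared). *Ahnak* differed little by condition (0.15 ± 0.11, adjusted p = 0.572), but its level was 11689 and 10512 CPM in KO batches 1 and 2 and 2732 in batch 3, and 11379.5, 10367 and 2063 CPM in WT.

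*S100a11* encodes calgizzarin, a partner of annexin A1 that is built into the cornified envelope of keratinocytes. Its level was 17.6, 21.0 and 16.5 CPM in KO and 13.7, 21.9 and 8.11 CPM in WT. WT batch 3 was the lowest of the 6 cultures and WT batch 2 the highest. KO minus WT was 0.36, -0.063 and 1.02 within batches 1, 2 and 3, and the fit gave 0.43 ± 0.23 (95% interval -0.079 to 0.94, adjusted p = 0.397). The value rests on batch 3, without which it was 0.15 (adjusted p = 0.827), and it was 0.69 without batch 2. It is the gene whose promoter holds TGANTCA at both positions printed above. *Anxa1* had 2381, 2922 and 1798 CPM in KO and 1919, 2300.3 and 1794 CPM in WT, with a log2 fold change of 0.22 ± 0.11 (adjusted p = 0.370).

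The epithelial genes *S100a14* and *S100a16* encode proteins that can bind each other. *S100a14* varied least of the 9 genes over the 6 libraries, and *S100a16* stood apart in 1 of them. *S100a14* had 1103, 1309.9 and 1111 CPM in KO and 1066, 1224 and 1212 CPM in WT. The KO and WT ranges nearly coincide, and the log2 fold change was 0.0073 ± 0.11 with a 95% interval of -0.23 to 0.25, which corresponds to a fold of 0.852 to 1.19 (adjusted p = 0.984). The SD of its log2 CPM over the 6 libraries was 0.113, beside a median of 0.405 over all tested genes. *S100a16* had 318, 339 and 301 CPM in KO and 314, 291 and 514 CPM in WT. WT batch 3 stood above the other 5 cultures, which lay between 291 and 339. The log2 fold change was -0.17 ± 0.17 (95% interval -0.56 to 0.21, adjusted p = 0.699) and turned to 0.12 without batch 3, while it was -0.37 without batch 2.

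*S100a13* encodes a protein that takes part in the export of interleukin-1 alpha and of fibroblast growth factor 1, which both leave cells without passing the Golgi. Its level was 16.1, 12.2 and 16.4 CPM in KO and 15.1, 14.4 and 14.9 CPM in WT. The 3 WT cultures lay between the lowest and the other two KO cultures, and the log2 fold change was -0.0024 ± 0.19 (95% interval -0.43 to 0.43, adjusted p = 0.997). Of its cargo genes, *Il1a* rose in KO: 98.0, 207 and 46.5 CPM in KO against 47.0, 104 and 26.5 CPM in WT, a log2 fold change of 0.96 ± 0.12 (adjusted p = 0.00276) that was positive in 3 of 3 batches. The ratio of *S100a13* to *Il1a* per kilobase was lower in KO in 3 of 3 batches, by a log2 mean of -0.96 ± 0.28 (SD), with the smallest p that the exact two-sided permutation test over 3 pairs allows (0.25, 0.313 adjusted over 5 pairs). *Fgf1* had 3 to 23 reads in a library, too few to resolve a difference (adjusted p = 0.815).

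**Figure D2:**
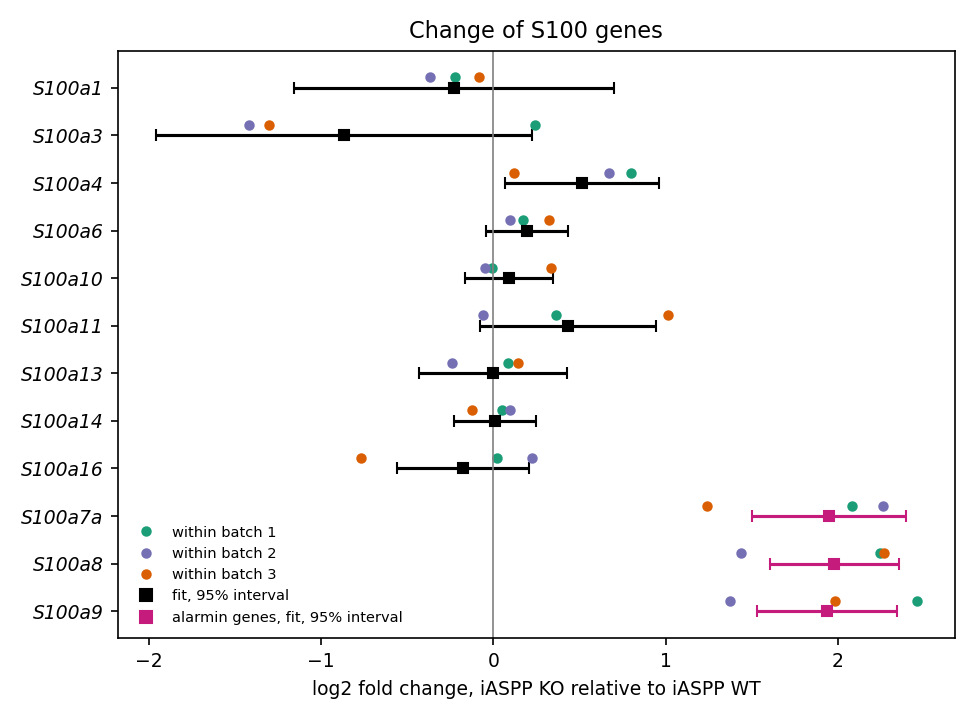
Fitted log2 difference between iASPP KO and WT cultures, positive where KO is higher (horizontal axis), for the 9 genes (black squares, with 95% intervals of the edgeR fit) and the alarmin genes (magenta), with the difference within each batch as colored points. The 9 intervals end at or below 0.96, and those of *S100a7a*, *S100a8* and *S100a9* begin at 1.50, 1.60 and 1.53.

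*S100a4*, whose protein binds the heavy chain of non-muscle myosin IIA (*Myh9*) and which is often used as a marker of fibroblasts and other motile cells, had the highest fitted log2 fold change of the 9. It had 7.79, 13.3 and 39.9 CPM in KO batches 1, 2 and 3 and 4.45, 8.33 and 36.7 CPM in WT. KO was above WT in 3 of 3 batches, by 0.80, 0.67 and 0.12 on the log2 scale, yet both cultures of batch 3 stood far above the others. The fitted log2 fold change was 0.51 ± 0.20 (95% interval 0.068 to 0.96, a fold of 1.05 to 1.94). Its unadjusted p was 0.0279 with edgeR and 0.0484 with DESeq2, and after adjustment over all genes it was 0.223 and 0.295. Without batch 3 the log2 fold change was 0.74 (adjusted p = 0.123), and without the batch term in the model it was 0.30. Same-direction differences in all 3 batches, as here, were seen in 3 of the 9 genes (*S100a1*, *S100a4* and *S100a6*) and in 39.3% of all tested genes. *Myh9* had a log2 fold change of -0.24 ± 0.10 (adjusted p = 0.288).

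*S100a4* differed more between batches than between KO and WT. Batch 3 was above batch 1 by 2.697 and batch 2 by 0.83 on the log2 scale, and the quasi-likelihood test of the batch terms gave an adjusted p of 2.02e-04. *S100a4* was the 1 gene of the 9 called in that test, beside 15.8% of all tested genes, and 0 of the 9 were called without batch 3, where the share of all tested genes also fell to 4.51%. The 10 fibroblast markers of a list (*Col1a1*, *Col1a2*, *Col3a1*, *Dcn*, *Lum*, *Pdgfra*, *Pdgfrb*, *Thy1*, *Postn* and *Fbn1*) were summed to 56.9, 77.8 and 512 CPM in KO and 65.9, 71.2 and 744 CPM in WT. The sum was thus highest in batch 3, as *S100a4* was, but lower in KO than in WT in batches 1 and 3, where *S100a4* was higher. All 10 were tested, 0 were called higher and 2 lower in KO (*Col1a2*, -0.55 ± 0.13, adjusted p = 0.0428, and *Col3a1*, -0.87 ± 0.18, adjusted p = 0.0269), and none was at 0 throughout. Beside these, 1.95% of all tested genes were called lower. The log2 fold change was negative for 9 of the 10 and positive for 1, *Pdgfra* (0.81 ± 0.34, adjusted p = 0.258). Within batches 1, 2 and 3, *Pdgfra* differed by 1.29, 1.60 and -0.42. Among the leukocyte markers, *Lyz2* was also highest in batch 3, with 4.81, 2.24 and 59.1 CPM in KO and 2.86, 1.11 and 49.6 CPM in WT. KO was above WT there in each batch, by 0.73, 0.96 and 0.25 on the log2 scale. *Csf1r* and *Cd68* of the same list were instead lowest in batch 3. The part of fibroblast or leukocyte markers in the level of *S100a4* was not tested. In RNA from whole cultures, fewer cells of a type and less RNA per cell cannot be told apart. Genes whose levels followed *S100a4* closely over the 6 libraries included *Ctsk* and *Ddr2*, with root-mean-square differences of centered log2 CPM of 0.194 and 0.210, beside an SD of 1.27 for *S100a4* itself.

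The muscle and hair genes were the rarest. *S100a1* encodes a protein known from heart and skeletal muscle, where it acts on ryanodine receptors and the calcium pump. It had 78, 30 and 89 reads in KO and 87, 43 and 90 reads in WT (3.47, 1.35 and 3.78 CPM against 4.08, 1.76 and 4.01). Both batch 2 cultures were low, and KO was slightly below WT in 3 of 3 batches. The log2 fold change was -0.23 ± 0.42 (adjusted p = 0.849), and its 95% interval of -1.16 to 0.70 left values well below and above 0 possible. The batch terms missed the threshold (batch 2 below batch 1 by a log2 difference of -1.28, adjusted p = 0.182). Muscle markers were close to absent, with sums of 0.328 to 3.27 CPM over 8 genes and *Myod1* at 0 in all libraries. The 9 markers of melanocytes and Schwann cells summed to 899.6, 434 and 1073 CPM in KO and 1129.7, 368 and 1056 CPM in WT, low in batch 2 as *S100a1* was. Of these 9, 8 were tested and 0 called, and their part in the level of *S100a1* was not tested.

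*S100a3* encodes a protein of the hair cuticle that the enzyme PADI3 modifies. It had 60, 50 and 37 reads in KO and 48, 150 and 90 in WT, or 2.67, 2.24 and 1.57 CPM against 2.25, 6.15 and 4.01 CPM. KO was below WT in batches 2 and 3, by log2 differences of -1.42 and -1.30, and above it in batch 1 by 0.24. The fitted value, -0.87 ± 0.49 (95% interval -1.96 to 0.23, adjusted p = 0.431), was the lowest among the 9 and was not resolved from 0. It was -1.40 without batch 1 and -0.55 without batch 2. Hair shaft markers summed to 1.17 to 4.46 CPM over the 11 of 12 in the table, 2 of which were tested and 0 called. *Padi3* had a log2 fold change of 0.92 ± 0.38 (adjusted p = 0.250). The closest patterns over the 6 libraries were those of *Npm3-ps1*, *Gm12183* and *Gmpr*, with differences of 0.238, 0.245 and 0.248 beside an SD of 0.681 for *S100a3*. These genes were themselves rare, at 0.595 to 2.38 CPM. They were picked for closeness among all tested genes without an S100 name, so the match shows no link to *S100a3*.

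**Figure D3:**
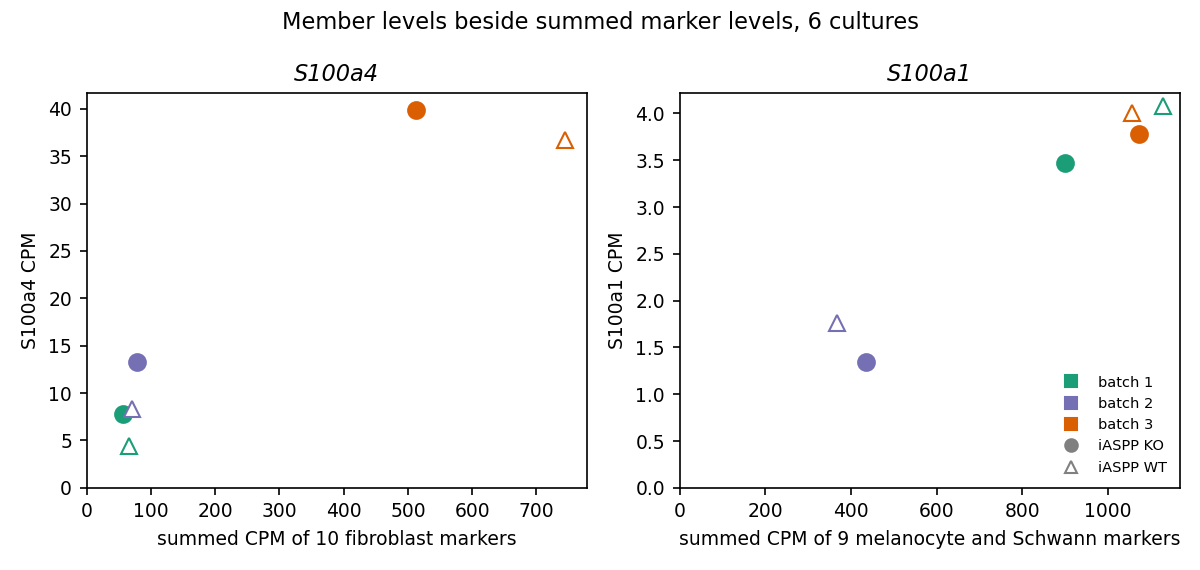
Left, *S100a4* level against the summed level of 10 fibroblast markers, and right, *S100a1* level against the summed level of 9 melanocyte and Schwann cell markers, both in CPM, for the 6 cultures (color, batch; circles, iASPP KO; triangles, iASPP WT). Both cultures of batch 3 stand apart at left, with marker sums of 512 and 744 CPM, and both cultures of batch 2 at right, with 434 and 368 CPM.

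How firmly a change can be bounded differed between the 9 genes. The 95% interval of the log2 fold change lay within -0.5 to 0.5 for 4 of them (*S100a6*, *S100a10*, *S100a13* and *S100a14*), beside 26.1% of all tested genes, and within -1 to 1 for 7, beside 59.6%. *S100a1* and *S100a3* were the exceptions. These intervals draw on the spread over all tested genes as well as on that of each gene's own cultures. The highest upper bound of the 9 was 0.96 (*S100a4*), under the lower bounds of 1.50, 1.60 and 1.53 for *S100a7a*, *S100a8* and *S100a9*.

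The makeup of the S100 transcripts differed between KO and WT in every batch. The level per kilobase was summed over 18 S100 gene names, leaving out the pseudogene *S100a11-ps*. Of it, the 9 genes made up 76.4%, 69.1% and 86.5% in KO batches 1, 2 and 3 and 94.0%, 85.3% and 95.9% in WT. *S100a7a*, *S100a8* and *S100a9* made up 23.6%, 30.8% and 13.5% in KO and 5.95%, 14.7% and 4.06% in WT. The share of the 9 was lower in KO in 3 of 3 batches, although KO batch 3 was above WT batch 2. A share falls when another rises, and the summed level of the 9 did not fall. It was 4751, 5452 and 6051 CPM in KO batches 1, 2 and 3 and 4507, 5243 and 5430 CPM in WT, a sum that was not tested. *S100a6* alone held 27.4% to 34.1% and *S100a10* 23.3% to 35.7%. The other 6 names, *S100a2*, *S100a5*, *S100a7l2*, *S100b*, *S100g* and *S100z*, had at most 19 reads in a library and were not tested, and *S100a5*, which lies between *S100a4* and *S100a6*, had 0 reads throughout.

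**Figure D4:**
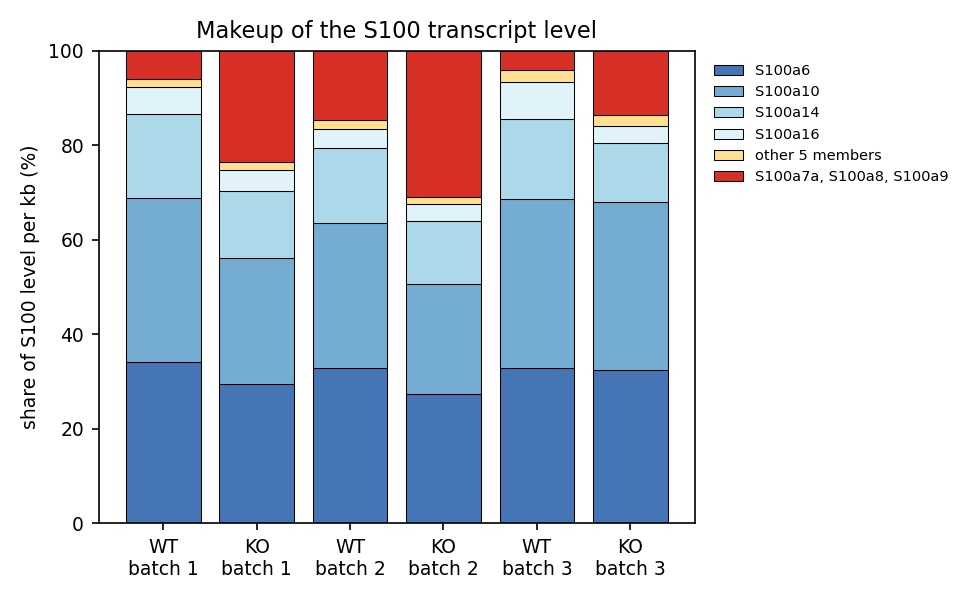
Share of the summed S100 level per kilobase (vertical axis, percent, bars to 100) held by *S100a6*, *S100a10*, *S100a14*, *S100a16*, the other 5 of the 9 genes, and *S100a7a*, *S100a8* and *S100a9* together, in each culture by batch. The alarmin share is 23.6%, 30.8% and 13.5% in KO and 5.95%, 14.7% and 4.06% in WT.

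Genes for proteins that S100 proteins bind were read from lists of annexins and of other partners. Of 12 annexin genes, 10 were tested and 0 were called by edgeR or DESeq2, with 4 and 5 at an unadjusted p under 0.05 and a median log2 fold change of -0.15. Among all tested genes, 4.12% were called by edgeR and 16.7% had an unadjusted p under 0.05. Of 32 genes for other partners and receptors, 27 were tested, 2 were called higher and 0 lower in KO, with a median of -0.060. The called genes were *Il1a* and *Mdm2*, the ubiquitin ligase of p53 that several S100 proteins bind (0.79 ± 0.13, adjusted p = 0.0118, 246, 308 and 158 CPM in KO against 147, 216 and 72.3 CPM in WT). *Cacybp*, the partner of S100A6, had -0.18 ± 0.12 (adjusted p = 0.553). The remaining ratios per kilobase of member to partner differed between KO and WT by log2 means of 0.37 ± 0.13 for *S100a6* to *Cacybp* and 0.77 ± 0.41 for *S100a4* to *Myh9*, both positive in 3 of 3 batches, and 0.22 ± 0.73 (SD) for *S100a11* to *Anxa1*, positive in 2 of 3. *Ager*, the gene of the receptor RAGE, had 3 to 25 reads in a library and was not tested.

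Some genes that lie between or beside the 9 were called. Within 50000 bases of them there were 16 other names, 7 of which were tested and 3 called, all higher in KO: *S100a7a*, *S100a8* and *Tchhl1*, which encodes a trichohyalin-like S100-fused protein (1.86 ± 0.20, adjusted p = 0.00155). Of all tested genes, 4.12% were called in either direction and 2.17% were called higher in KO. The 2 called S100 neighbors are alarmin genes left out of the 9 by name. Of the 5 tested neighbors without an S100 name, 1 was called. *Tchhl1* lies on the side of *S100a11* away from *S100a10*.

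The 6 libraries held 20202517 to 25157117 counts and 20187 to 22621 detected genes each. A level of 3 reads, the floor set by counting, was 0.119 to 0.148 CPM, far under every member's level. The 10 keratinocyte markers summed to 31177 to 38935 CPM, 0 were called, and *Krt14* stood at 14958 CPM or more in every culture. The 10 leukocyte markers summed to 44.0 to 84.0 CPM, with 6 tested and 1 called higher in KO (*Csf1r*, 1.11 ± 0.21, adjusted p = 0.0206), and the 6 endothelial markers to 3.06 to 13.02 CPM.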

How the data were processed

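RNA was depleted of ribosomal RNA and sequenced as single reads of 42 bases. The authors trimmed reads with cutadapt 2.10, aligned them to mm10 with STAR 2.7.3, and deposited raw counts per gene name from featureCounts 2.0.0 (per the file headers, exons of GENCODE vM25, reverse-stranded). Their table of DESeq2 fold changes and p-values was not used. Groups and batches follow the labels.

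R 4.3.3 with edgeR 4.0.16 was used to test the whole table of counts: filterByExpr by condition, TMM, quasi-likelihood test with batch and condition, and Benjamini-Hochberg adjustment at 0.05. The residual degrees of freedom were 2. The SE is the log2 fold change divided by the square root of F, without sign. CPM used TMM-scaled totals, and within-batch differences a prior count of 2. The labels give each batch 1 KO and 1 WT culture, and their deviations from the condition means correlated by 0.302, 0.368 and 0.568. Cultures of a condition differed far beyond sampling noise (chi-square per gene of 35.4 or more), and each was kept as a replicate of its own. Intervals and floors cover counting error only where they rest on single counts, since molecules were not tagged. Scripts were tested on simulated data.

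The members and lists were chosen with earlier results of these data known. All 9 members were named, with the targeted gene, main partner genes whatever their change, up to 4 called genes per direction of each list, the 3 closest patterns for the members with the highest and lowest fitted change, and called neighbors. Some items that this rule covers are not reported here. *Padi3* and the listed markers were named after their values were seen, and the partner ratios were added then too. Alternatives were no batch term, DESeq2 1.42.0, other scalings and filters, robust dispersion and each batch left out. Exons on several chromosomes share a name in 7 cases, none a member. Figures and sequences used Python 3.11.15, pandas 2.3.3 and matplotlib 3.10.9.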

Additional observations from a re-analysis of the deposited data

How the results depend on the processing

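No member was called under any of the 10 alternatives by edgeR or DESeq2, while the share of all tested genes called ran from 0% without the replicate block to 9.53% without batch 3. Without the replicate block 0 genes were called at all, so the 0 of 9 there says nothing about the members, and *Il1a* and *Mdm2* were lost (0 partners higher). The block otherwise follows the design, in which a batch was divided between KO and WT. The direction turned for 4 of the 9, none of them called: *S100a10* (-0.030) and *S100a16* (0.12) without batch 3, *S100a14* without batch 1 (-0.0099) and batch 2 (-0.034), and *S100a13* without batch 2 (0.12), without the block (0.0093), with DESeq2's size factors (0.0033), with DESeq2 (0.0021), with no filter (0.0020) and with at least 10 counts in every library (0.0063). Leaving out each batch in turn gave -0.030 to 0.17 for *S100a10*, -0.076 to 0.12 for *S100a13*, -0.034 to 0.074 for *S100a14* and -0.37 to 0.12 for *S100a16*. The median of the 9 ran from -0.0099 to 0.12 when a batch was left out. Over the alternatives the adjusted p of *S100a4* ran from 0.123 to 0.990, and its unadjusted p was under 0.05 in 7 of 10. Other members also had an unadjusted p under 0.05 in some: *S100a3* without batch 1, and *S100a11* without batch 2 and with no filter. Without batch 1 and without batch 2, *S100a4* did not. With no filter, 1 annexin was called higher (*Anxa11*) and 1 lower (*Anxa6*). Leaving out a batch gave 0 to 2 annexins higher and 0 to 1 lower, the calls all coming without batch 3 (*Anxa1*, *Anxa11* and *Anxa3*). In the test of batches, 3 members were called with no filter (*S100a4*, *S100a10* and *S100a11*, beside 10.5% of all genes), 2 without batch 1 (17.1%), 1 without batch 2 (11.5%) and 0 without batch 3 (4.51%). Calls over all genes, 323 higher and 291 lower, became 624 and 491 with no filter, 169 and 151 without batch 1, 174 and 117 without batch 2, and 793 and 662 without batch 3. The causes were not tested. *S100a1* and *S100a3* had the fewest reads, 30 to 150 in a library, and the largest SEs of the 9.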
